A study of Sus scrofa with 24 samples.

Results

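Adipocyte genes served here as a measure of fat in vein tissue. They were 6 genes, ADIPOQ, LEP, PLIN1, FABP4, LPL and CIDEC, found by gene symbol in the pig array's own annotation, and 10 of the 43603 probes on the array belonged to them. The veins came from pigs with an arteriovenous haemodialysis graft, a model in which tissue builds up on the inner wall of the vein that receives the graft. Total RNA was taken at 3 sites, each at day 14 and at day 5 after graft placement, with 4 samples per site and day and 24 samples in all. The tested sites were the venous anastomosis, where the graft was sewn to the vein, and the vein segment downstream of it, and the control was the external jugular vein. The labels give no strain, age, allele or drug for any of the 6 groups. They call the replicates biological, but do not tell which samples came from the same pig.

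White adipocytes store triglyceride in a single large droplet, release it as fatty acids when energy is needed, and secrete hormones. Most veins lie in a sheath of such fat outside the adventitia, so a dissected vein segment can carry more or less of it. Adiponectin (ADIPOQ) and leptin (LEP) are hormones that adipocytes secrete. Perilipin 1 (PLIN1) coats the fat droplet and controls access of lipases to it, and CIDEC, found where droplets touch, lets them fuse into larger ones. FABP4 carries fatty acids inside the cell, and lipoprotein lipase (LPL) frees fatty acids from circulating lipoproteins for uptake. FABP4 is also made by macrophages and by the endothelium of small vessels, and LPL by macrophages and muscle, so that ADIPOQ, PLIN1 and CIDEC are the more specific members.

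A level below is the log2 of the background-corrected and normalised intensity of the gene's brightest probe. The readings rest on the following probe stretches, 30 bases of each 60-base probe, shown because a level is only as specific as its probe. Capitals in the ADIPOQ stretches mark 11 bases at which 2 neighbouring ADIPOQ probes overlap, and capitals in the LEP stretch mark the part that has runs of at least 16 bases in common with probes of other names.
ADIPOQ, brightest probe, first bases: AGACAACAGCTtgagtgatactcttcaaaa
ADIPOQ, neighbouring probe, last bases: gtggtaatatcttctcaggAGACAACAGCT
LEP: gaaaataCCAGAGTTCCCTTGTGGCACAGa
PLIN1: tgtctgacgccctgaagggcgttactgaca
FABP4: ccactaattaggaagcaactaattttcccc
LPL: tacaaattttgggcaaggattgtttttaca
CIDEC: gaattgccaatccactagggtatgctatta
The 2 overlapping ADIPOQ probes correlated at r = 0.998 over the 24 samples, and the other 2 ADIPOQ probes correlated with the brightest at 0.918 and 0.948. The second CIDEC probe correlated with the brightest at 0.984. The brightest probes of ADIPOQ, PLIN1, FABP4, LPL and CIDEC had 0 runs of 16 bases in common with probes of other names. The LEP probe had such runs in common with 5 of them, the longest of 20 bases, so part of a LEP reading may come from other transcripts. The place of these probes in the pig genome was not analysed here.

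The arrays were read in 2 colours, and all jugular control samples were in the green channel (Cy3) and all graft-site samples in the red (Cy5), so that dye and site cannot be told apart in a comparison with the control. Over the 24 samples, 56.9% to 80.2% of probes were well above background, the scanner software's own call, and 0% of spots were saturated. The number of samples limits the precision. The authors' deposited value table could be set against the scanner files. For replicates 1 to 3, each of the 18 table columns correlated best with its own sample's scanner values, at 0.697 to 0.901 over 25145 probes centred on their means, whereas for replicate 4 that held for 0 of 6 columns, at 0.061 to 0.525. Replicate 4 therefore has 2 versions, and the levels below are those of the scanner files. With replicate 4 left out, limma again called 0 of the 6 genes in each of the 12 comparisons described below.

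ADIPOQ had the widest range of the 6 genes. At the anastomosis it stood at 8.99, 8.39, 16.43 and 11.94 in replicates 1 to 4 of day 14, against 6.37, 6.38, 5.66 and 9.58 at day 5. At day 5, the probe was well above background in 2 of these 4 anastomosis samples. The downstream vein had 7.21, 16.77, 12.06 and 15.77 at day 14, against 10.28, 12.84, 11.68 and 6.68 at day 5. The jugular control had 8.22, 17.75, 9.94 and 8.54 at day 14, and 10.86, 9.81, 12.44 and 13.55 at day 5. Every group at day 14 thus held both low and very high samples, while 3 of the 4 anastomosis samples of day 5 were the lowest of all 24. The span over all samples, 5.66 to 17.75, is 4340-fold.

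CIDEC, the droplet fusion gene, had the second widest range, 6.82 to 16.05 or 603-fold. Its anastomosis levels were 8.51, 13.46, 15.87 and 10.04 at day 14, against 7.54, 6.82, 8.12 and 8.81 at day 5. In the downstream vein they were 7.76, 15.54, 10.89 and 14.05 at day 14, against 8.89, 9.56, 9.67 and 8.80 at day 5. Day 14 was uneven at both graft sites, and the 4 downstream samples of day 5 lay close together. The jugular control had 8.11, 16.05, 12.65 and 8.25 at day 14, against 8.78, 7.71, 10.72 and 11.33 at day 5.

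LPL, the lipase that supplies adipocytes with fatty acids, ranged from 7.39 to 15.10, or 209-fold. Its levels at the anastomosis were 9.28, 9.75, 14.71 and 11.38 at day 14, against 8.78, 8.21, 8.27 and 10.19 at day 5. Downstream, it stood at 8.65, 14.46, 10.31 and 12.98 at day 14, against 9.50, 11.08, 10.26 and 9.07 at day 5. The high LPL samples were those high in ADIPOQ. In the jugular control it had 7.39, 15.10, 10.09 and 9.38 at day 14, against 11.10, 8.93, 10.89 and 11.68 at day 5.

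FABP4, the fatty acid carrier, was well above background in all 24 samples and ranged from 10.45 to 18.39, or 247-fold. At the anastomosis it had 15.11, 13.88, 17.68 and 14.90 at day 14, against 13.61, 12.91, 13.60 and 15.20 at day 5. The downstream vein had 13.13, 17.57, 15.02 and 16.44 at day 14, against 14.22, 17.39, 15.88 and 12.92 at day 5. One sample departed from the other genes here: downstream replicate 2 of day 5 was nearly as high in FABP4 as the day 14 downstream sample of the same number, but not in CIDEC or PLIN1. The jugular control had 10.45, 18.39, 12.36 and 12.28 at day 14, against 14.21, 13.61, 14.09 and 14.59 at day 5.

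The PLIN1 probe, for the droplet coat, was well above background in 12 of 24 samples and in 0 of the 4 anastomosis samples of day 5. It read 5.85, 6.07, 9.32 and 6.50 at the anastomosis at day 14, against 6.01, 6.02, 5.67 and 6.08 at day 5. In the downstream vein it read 5.83, 9.27, 6.33 and 8.15 at day 14, against 6.02, 6.51, 6.05 and 6.17 at day 5. Outside the high samples of day 14, PLIN1 was close to its floor. The jugular control had 5.91, 9.41, 6.24 and 6.28 at day 14, against 6.15, 6.11, 6.05 and 6.66 at day 5.

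LEP, the hormone that reports fat stores, had the narrowest range, 6.70 to 9.96 or 9.6-fold. It read 7.11, 7.53, 9.87 and 7.01 at the anastomosis at day 14, against 7.36, 6.8, 6.95 and 7.03 at day 5. The downstream vein read 7.17, 9.05, 7.21 and 8.07 at day 14, against 7.73, 6.97, 7.13 and 7.11 at day 5. The jugular control read 7.05, 9.96, 7.27 and 7.08 at day 14, against 7.59, 6.70, 7.09 and 7.41 at day 5. The same 4 samples of day 14 that were highest in PLIN1 were highest in LEP.

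**Figure D1:**
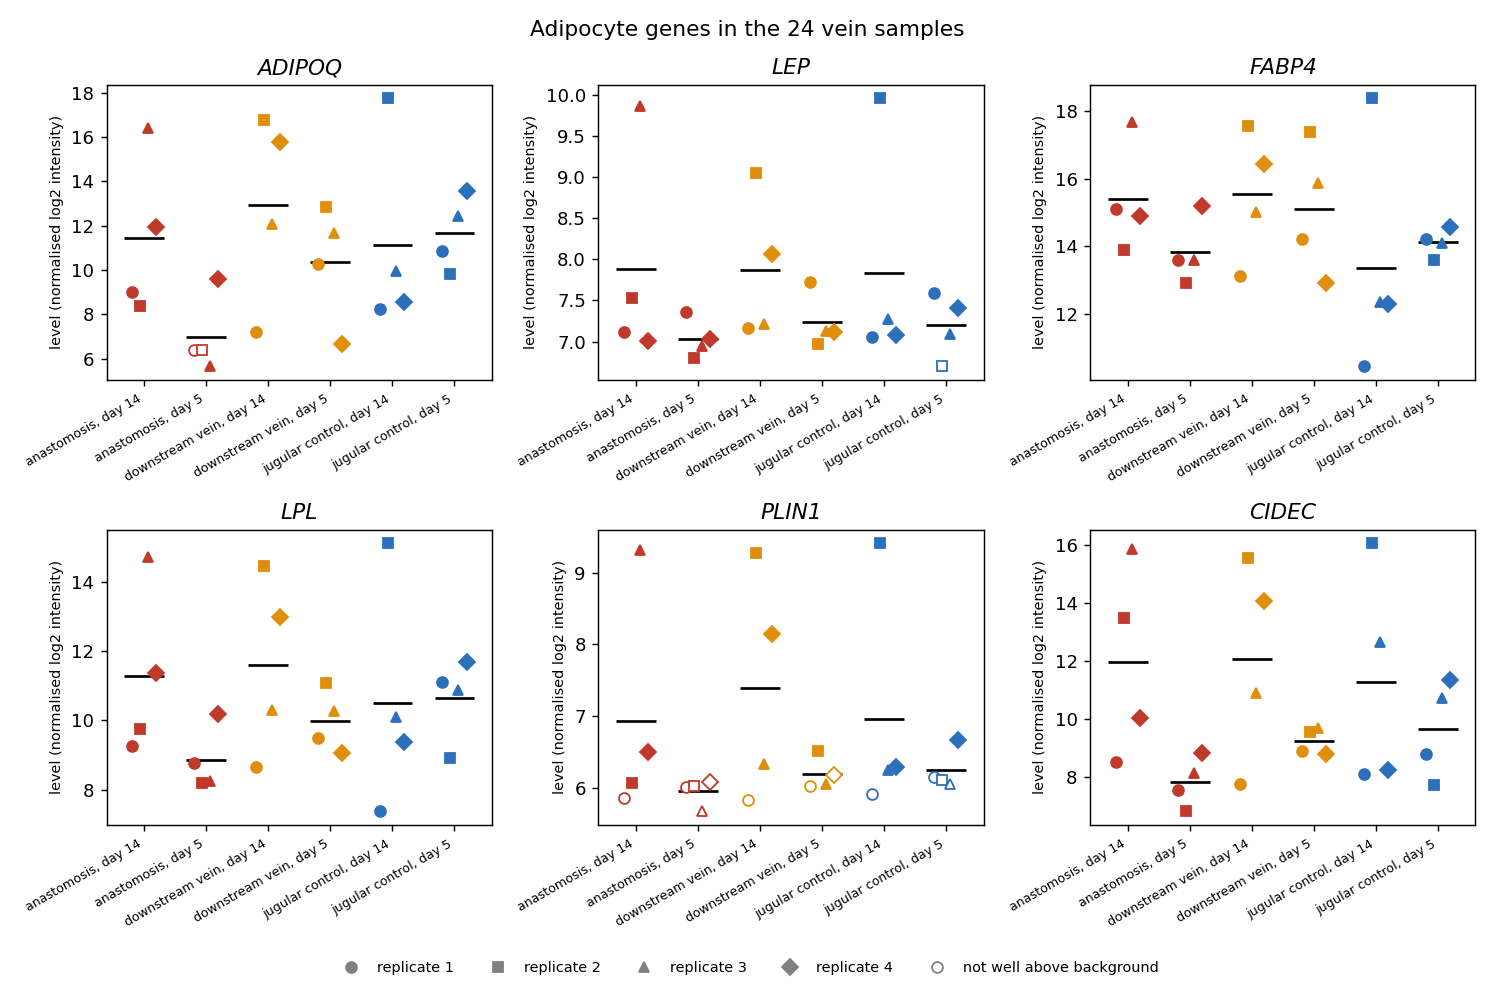
Level (log2 normalised intensity) of the 6 adipocyte genes in each of the 24 samples, by site and day, with points for samples (open where the probe was not well above background) and bars for group means. By these scanner-file levels, jugular control replicate 2 of day 14 is the highest sample for all 6 genes. For ADIPOQ, 3 of the 4 anastomosis samples of day 5 are the lowest.

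The 6 genes tended to go up and down together from sample to sample, with exceptions. At day 14, CIDEC stood at 13.46 in anastomosis replicate 2, where ADIPOQ was 8.39 and PLIN1 6.07. In jugular control replicate 3 of day 14, CIDEC was 12.65, ADIPOQ 9.94 and PLIN1 6.24. The unlabelled green channel of the downstream array of that number and day, described under other observations, read CIDEC 9.40, ADIPOQ 10.30 and PLIN1 6.09. Over all probes, that channel correlated most with this same control. By the scanner files, jugular control replicate 2 of day 14 was the highest sample for all 6 genes. In the authors' deposited table, anastomosis replicate 3 of day 14 exceeded it in FABP4 (19.13 against 17.93) and LPL (15.62 against 14.67). The same held for CIDEC (16.57 against 15.42), PLIN1 (9.9 against 8.35) and LEP (11 against 10.38), but not ADIPOQ (16.89 against 16.94). Over the 15 gene pairs, r ran from 0.670 to 0.942 across the 24 samples and from 0.484 to 0.918 without the 2 highest samples, and Spearman's rho from 0.440 to 0.935. The jugular control and anastomosis samples of a number and day share an array, and the values are a description. The mean over the 6 genes of the level minus its mean over all samples, called the adipocyte mean below, gave each sample a single value on the log2 scale. It was 3.94 in anastomosis replicate 3, 3.74 and 2.54 in downstream replicates 2 and 4, and 4.40 in jugular control replicate 2, all of day 14. The next sample stood at 0.83, so that 4 samples spread over all 3 sites lay well above the other 20. Values of r given without the 2 highest samples, here and below, still include downstream replicates 2 and 4 of day 14.

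At day 14, the adipocyte mean ran from -0.90 to 3.94 at the anastomosis (median 0.04), from -1.75 to 3.74 in the downstream vein (median 1.40) and from -2.19 to 4.40 in the jugular control (median -0.84). At day 5 it ran from -2.18 to -0.56 at the anastomosis (median -1.88), from -1.58 to 0.69 in the downstream vein (median -0.26) and from -1.23 to 0.83 in the jugular control (median -0.04). All 3 sites overlapped at day 14 and also at day 5. In bulk tissue, fewer adipocytes and less RNA per adipocyte cannot be told apart.

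The spread between replicates of a group was the leading feature of these genes. The within-group SD was 3.30 for ADIPOQ, 2.63 for CIDEC, 2.11 for LPL, 1.97 for FABP4, 1.16 for PLIN1 and 0.91 for LEP, against a median of 0.339 over the 33440 features tested. ADIPOQ stood at percentile 100, CIDEC at 99.98, LPL at 99.90, FABP4 at 99.85, PLIN1 at 98.54 and LEP at 95.82 of all features in this spread. The SD of the 6 group means was 2.02 for ADIPOQ, 1.71 for CIDEC, 0.98 for LPL, 0.90 for FABP4, 0.57 for PLIN1 and 0.40 for LEP. A mean of 4 samples varies less than a single sample, so these values cannot be set directly against the within-group SD. With such a spread within groups, differences between groups had wide errors. The median standard error of a site difference was 1.20 over the 6 genes and 0.14 over all features.

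In group means, ADIPOQ was ordered as downstream vein day 14 (12.95 ± 4.33, SD, n = 4), jugular control day 5 (11.66 ± 1.65), anastomosis day 14 (11.44 ± 3.67), jugular control day 14 (11.11 ± 4.49), downstream vein day 5 (10.37 ± 2.67) and anastomosis day 5 (7.0 ± 1.75). CIDEC averaged 11.97 ± 3.32 at the anastomosis, 12.06 ± 3.46 downstream and 11.27 ± 3.82 in the jugular control at day 14, above 7.82 ± 0.85, 9.23 ± 0.45 and 9.64 ± 1.68 at the same sites at day 5. The anastomosis at day 5 had the lowest group mean for ADIPOQ, LEP, PLIN1, LPL and CIDEC, but not for FABP4, whose lowest mean was that of the jugular control at day 14 (13.37 ± 3.46). LPL was highest in the downstream vein at day 14 (11.60 ± 2.61), followed by anastomosis day 14 (11.28 ± 2.46), jugular control day 5 (10.65 ± 1.19), jugular control day 14 (10.49 ± 3.28), downstream vein day 5 (9.98 ± 0.88) and anastomosis day 5 (8.86 ± 0.92). FABP4 averaged 15.39 ± 1.62 at the anastomosis and 15.54 ± 1.92 downstream at day 14, against 13.83 ± 0.97 and 15.10 ± 1.95 at these sites at day 5, and 14.13 ± 0.40 in the jugular control at day 5. For PLIN1 and LEP, the 3 means of day 14 (6.93 to 7.40 and 7.84 to 7.88) lay above the 3 of day 5 (5.95 to 6.24 and 7.03 to 7.2). In the order of group means of each gene, the samples of neighbouring groups overlapped.

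The comparison of anastomosis and jugular control asks how the joined vein differs from the control vein. At day 5, all 6 genes had a negative difference, with a median of -1.04 beside 0.002 over all features. The limma fit called 0 of the 6 at an adjusted p under 0.05, while it called 19.4% of all features. At an unadjusted p under 0.05 it was 1 of 6, against 31% of all features. ADIPOQ had the largest difference, -4.66 (SE 2.15, 95% interval -9.26 to -0.07, limma adjusted p = 0.155). It was lower in 4 of 4 pairs on the same array, by -4.49, -3.43, -6.77 and -3.97 in replicates 1 to 4, and its groups did not overlap. That was so for 1 of the 6 genes, and 14.8% of all features had groups that did not overlap. These values are those of the brightest probe, and the neighbouring probe that overlaps it differed by -4.63. The other 2 ADIPOQ probes differed less, by -1.35 (limma adjusted p = 0.519) and -1.9 (adjusted p = 0.383). Their groups overlapped, with anastomosis levels up to 8.06 and 7.48 and control levels from 7.17 and 6.9. Within the earlier version of the image extraction protocol (replicates 1 and 2) the ADIPOQ difference was -3.96, and within the later one (replicates 3 and 4) -5.37.

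CIDEC and LPL were also lower in 4 of 4 pairs at day 5, with differences of -1.81 (SE 1.16, limma adjusted p = 0.328) and -1.79 (SE 1.24, adjusted p = 0.377). The second CIDEC probe differed by -0.9 (limma adjusted p = 0.644). FABP4 differed by -0.30 (interval -3.06 to 2.46) and LEP by -0.16 (interval -1.33 to 1.01). PLIN1 averaged 5.95 at the anastomosis and 6.24 in the jugular control (limma adjusted p = 0.850). It was well above background in 0 of 4 anastomosis samples and in 1 of 4 control samples, so no fold is given. The calls at day 5 depended on which samples entered the fit. With the anastomosis and control samples of day 5 alone, limma gave adjusted p = 0.00254 for ADIPOQ, 0.0106 for LPL and 0.0107 for CIDEC, so that 3 of the 6 genes passed. The fit on all 24 samples gave each gene the same standard error at both days, 2.15 for ADIPOQ. The SD of ADIPOQ was 1.75 at the anastomosis and 1.65 in the control at day 5, against 3.67 and 4.49 at day 14. The errors and intervals reported for day 5 thus include the wider spread of day 14.

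At day 14, the anastomosis and the jugular control each held a sample rich in these genes, and the differences were small beside their errors. The fit in limma called 0 of the 6, against 8.79% of all features (at an unadjusted p under 0.05, 0 of 6 and 24.9%), and the median difference was 0.52. ADIPOQ differed by 0.33 (interval -4.27 to 4.93, limma adjusted p = 0.950), and its 4 pairs differed by 0.77, -9.35, 6.50 and 3.40. The ADIPOQ value turned with single samples: without jugular control replicate 2 it was 2.41, and without anastomosis replicate 3 it was -1.68. It was -4.29 within replicates 1 and 2 and 4.95 within replicates 3 and 4. Of the 6 genes, 1 was positive within replicates 1 and 2, without replicate 3 or without anastomosis replicate 3 of day 14. FABP4 had the largest difference, 2.03 (SE 1.29, limma adjusted p = 0.364), and was higher in 3 of 4 pairs. Without replicate 2 of both days, FABP4 differed by 4.21 with a limma adjusted p of 0.0167, and without only the jugular control replicate 2 of day 14 by 3.62 with 0.0582. LPL, CIDEC, LEP and PLIN1 differed by 0.79, 0.71, 0.04 and -0.03.

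Between the downstream vein and the jugular control at day 5, limma called 0 of the 6, against 8.21% of all features (at an unadjusted p under 0.05, 0 of 6 and 25.1%). Here 4 of the 6 differences were negative and the median was -0.23. ADIPOQ differed by -1.29 (interval -5.89 to 3.30) and FABP4 by 0.97 (interval -1.79 to 3.73). Replicate 4 set the signs: without it 5 of the 6 differences were positive, with 0.56 for ADIPOQ, 1.86 for FABP4 and -0.03 for LPL. At day 14, all 6 differences were positive with a median of 0.95, and limma again called 0, against 0.921% of all features (at an unadjusted p under 0.05, 0 of 6 and 15.1%). The largest was FABP4, 2.17 (SE 1.29, limma adjusted p = 0.460), followed by ADIPOQ, 1.84 (SE 2.15, adjusted p = 0.744). Without replicate 4, 3 of the 6 differences at day 14 were positive, and that of ADIPOQ was 0.04 (limma adjusted p = 0.997). Within replicates 1 and 2, 2 were positive, and 1 was when the fit used the authors' deposited table.

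Anastomosis and downstream vein were both labelled in red, so the dye does not part them. At day 5, all 6 genes had a negative difference of the anastomosis from the downstream vein, with a median of -1.19, and limma called 0 of 6 and 0% of all features (at an unadjusted p under 0.05, 0 of 6 and 10%). ADIPOQ differed by -3.37 (interval -7.97 to 1.23, limma adjusted p = 0.621) and was lower at the anastomosis in 3 of 4 pairs. PLIN1 averaged 5.95 at the anastomosis and 6.19 downstream (limma adjusted p = 0.941), and was well above background in 0 of 4 and 2 of 4 of these samples, so no fold is given. At day 14, 5 of 6 differences were negative and the median was -0.23. These signs turned with the samples: all 6 were positive without replicate 2, with 0.78 for ADIPOQ and 1.14 for LPL, and all 6 when fitted on the authors' deposited table, with 1.36 for ADIPOQ and 1.94 for CIDEC. The ADIPOQ difference was -1.51 (interval -6.11 to 3.09), and limma called 0 of 6 and 0% of all features (at an unadjusted p under 0.05, 0 of 6 and 14.1%).

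**Figure D2:**
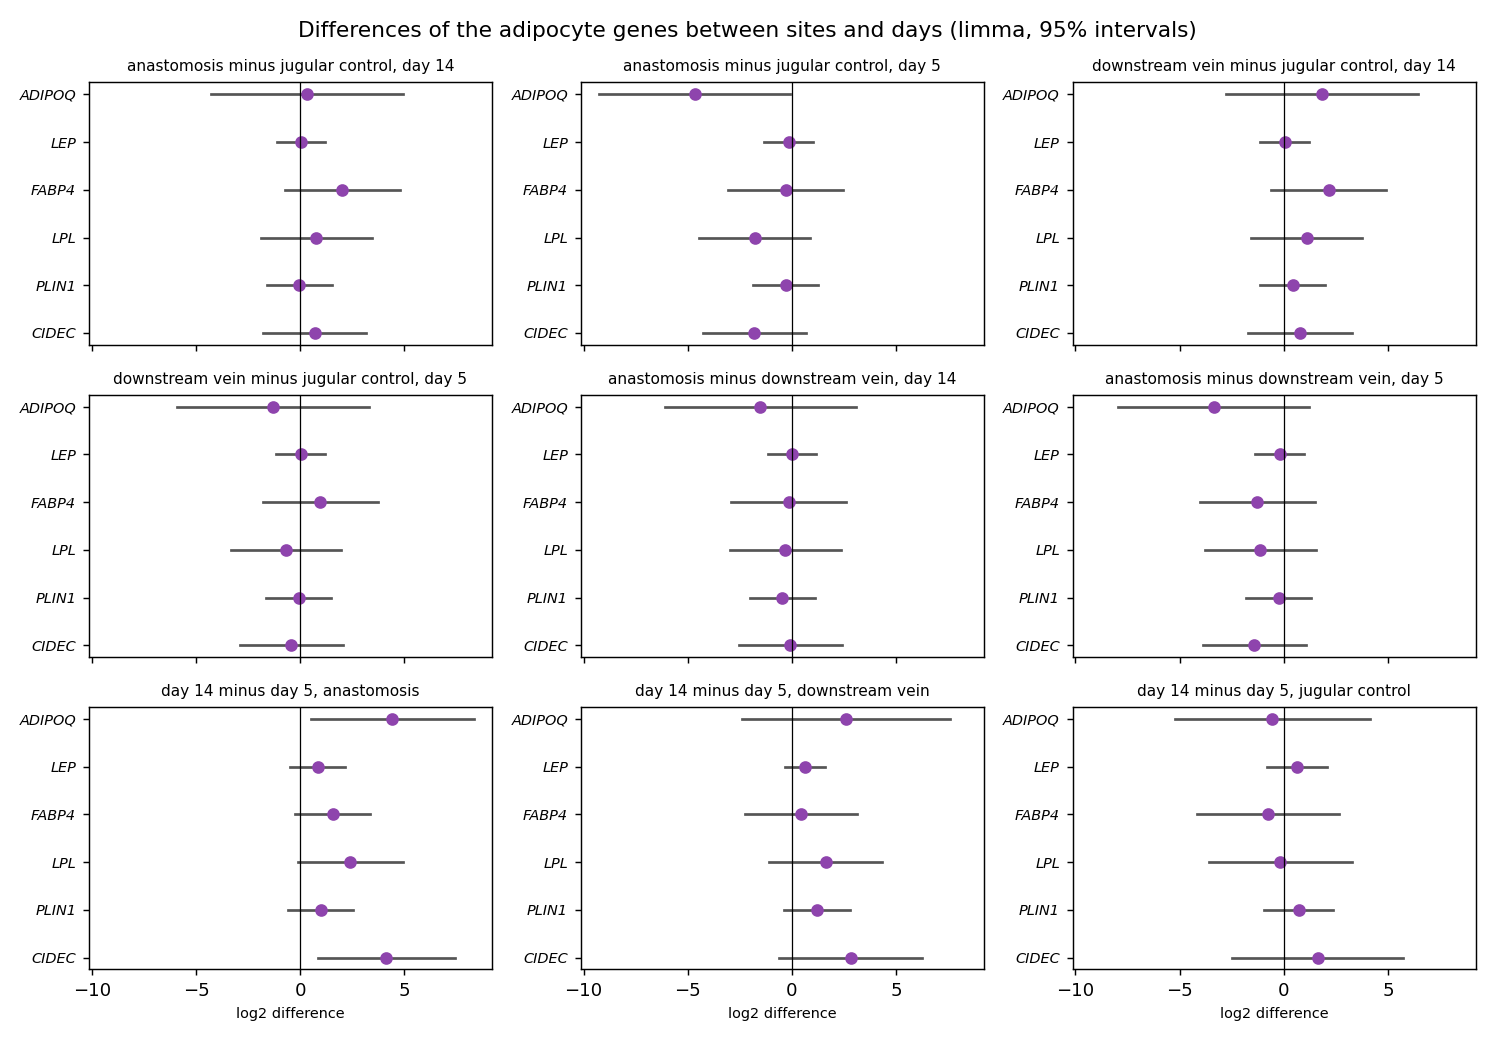
Fitted differences of the 6 adipocyte genes (log2, with 95% intervals) in the 6 comparisons of sites within a day and the 3 of day 14 with day 5, with points for the differences, lines for the intervals and a vertical line at 0. Of the 6 site comparisons, the interval of ADIPOQ at the anastomosis against the jugular control at day 5, -9.26 to -0.07, is the only one that leaves out 0.

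The day comparisons ask whether a site held more of these transcripts at day 14 than at day 5. In replicates 1 to 3, the days were on different slides and scans, so day and slide cannot be told apart there. Replicate 4 had both days on the same slide. At the anastomosis, all 6 genes had a positive difference with a median of 1.99, beside 0.007 over all features. The fit in limma called 0 of 6 genes, and 0.00598% of all features. At an unadjusted p under 0.05 it was 2 of 6, against 8.28% of all features. CIDEC averaged 11.97 at day 14 and 7.82 at day 5, a difference of 4.15 (SE 1.44, interval 0.87 to 7.43, limma adjusted p = 0.448). ADIPOQ averaged 11.44 at day 14 and 7.0 at day 5, a difference of 4.44 (SE 1.71, interval 0.55 to 8.33, limma adjusted p = 0.512). Replicate 3 of day 14 was the highest anastomosis sample for both, and without it the differences were 2.85 for CIDEC and 2.77 for ADIPOQ. In both genes the groups overlapped. LPL differed by 2.42, FABP4 by 1.57 and LEP by 0.85, and PLIN1 averaged 6.93 at day 14 and 5.95 at day 5 (limma adjusted p = 0.820). The day 14 mean of PLIN1 was at least 1.94-fold above the dimmest signals still above background on the day 5 arrays, but replicate 3 carried it: without that sample the PLIN1 difference was 0.19, and within replicates 1 and 2 it was -0.06.

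In the downstream vein, the differences between day 14 and day 5 were positive for all 6 genes too, with a median of 1.42. CIDEC differed by 2.83 (interval -0.60 to 6.26) and ADIPOQ by 2.58 (interval -2.41 to 7.57), both at a limma adjusted p of 1. Fitted on the authors' deposited table, 3 of the 6 were negative, with -1.99 for ADIPOQ, -1.44 for FABP4 and -0.46 for LPL. In the jugular control 3 were positive and 3 negative, with a median of 0.24. ADIPOQ differed by -0.55 (interval -5.23 to 4.13) and CIDEC by 1.63 (interval -2.46 to 5.72). At both sites limma called 0 of 6 and 0% of all features. At an unadjusted p under 0.05 it was 0 of 6 at both, against 4.47% of all features downstream and 1.93% in the jugular control.

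Whether the site differences themselves differed between the days was tested as an interaction. The anastomosis-minus-control difference was higher at day 14 than at day 5 for all 6 genes, by a median of 2.42, and most for ADIPOQ, by 4.99 (SE 3.04, limma adjusted p = 0.726). Within replicates 1 and 2 this change was negative for 5 of the 6 genes (ADIPOQ -0.33), and within replicates 3 and 4 positive for all 6 (ADIPOQ 10.32). Without replicate 3, or without anastomosis replicate 3 of day 14 alone, 4 of the 6 were positive. The downstream-minus-control difference was higher at day 14 by a median of 1.20, and the anastomosis-minus-downstream difference by 0.96. Without replicate 4, 1 of the 6 downstream-minus-control changes was positive, and without replicate 3, 0 of the 6 anastomosis-minus-downstream changes. In these 3 comparisons limma called 0 of 6 genes and 0% of all features. At an unadjusted p under 0.05 it was 0 of 6 in each, against 8.34%, 7.54% and 4.14% of all features in the order given. The site comparisons of a day share their control samples, so their signs are not independent.

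Of the 105 other genes of adipocyte biology listed by role, 61 were tested. In the anastomosis against the jugular control at day 5, 4 rose, 7 fell and 50 did not pass, a share near the 19.4% of all features called there, and their median of -0.03 was near that of all features. Among the secreted factors, CFD (complement factor D, or adipsin) fell: it averaged 12.65 ± 0.57 at the anastomosis and 15.53 ± 0.50 in the control (SD, n = 4 each), a difference of -2.88 (limma adjusted p = 0.000592). TF, the iron carrier transferrin, fell by 1.84 (limma adjusted p = 0.00452). CFD was lower at the anastomosis at day 14 as well, by -1.35 (limma adjusted p = 0.0429), and in the downstream vein at day 5, by -2.03 (adjusted p = 0.0102). CFD correlated with the adipocyte mean at 0.530 over the 24 samples, so its levels did not follow the 6 genes closely. Of 6 adipokine genes tested, 2 fell at the anastomosis at day 5.

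Of the genes for adipocyte transcription and insulin response, 1 rose and 2 fell of 13 at the anastomosis at day 5 against the control. IRS1, a docking protein of the insulin receptor, fell by 0.88 (limma adjusted p = 0.00723). In the brown fat group, PPARGC1A, a coactivator of mitochondrial genes, fell by 1.61 (adjusted p = 0.00288) and CPT1B, the muscle form of the mitochondrial fatty acid importer, by 1.09 (adjusted p = 0.0123), and 1 of 5 rose. CAV1, a caveolar coat protein of adipocytes, endothelium and muscle alike, fell by 0.95 (adjusted p = 0.00426) as 1 of 6 in the lipid droplet group. LIPA, the lysosomal acid lipase, was 1.14 higher (adjusted p = 0.0254) as 1 of 10 lipolysis genes. Of 11 genes for fatty acid synthesis, 0 passed in limma there, with 0 at an unadjusted p under 0.05. Beside these role group counts, 19.4% of all features were called in this comparison, and 31% had an unadjusted p under 0.05.

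The other comparisons with the control gave fewer calls among the 61 genes. At the anastomosis at day 14, where 8.79% of all features were called, 2 rose and 1 fell, with a median of 0.06: FABP5, a fatty acid carrier of skin, macrophages and endothelium, was 2.17 higher (limma adjusted p = 0.0292) and LIPA 1.34 higher (adjusted p = 0.0230), beside CFD. In the downstream vein at day 5, 1 rose and 5 fell, a share near the 8.21% of all features, with a median of -0.01. There LIPA was 1.36 higher (limma adjusted p = 0.0246), while VLDLR, a lipoprotein receptor, fell by 1.68 (adjusted p = 0.0451), PPARGC1A by 1.13 (adjusted p = 0.0387), CAV1 by 0.88 (adjusted p = 0.0185) and IRS1 by 0.69 (adjusted p = 0.0461). In the other 9 comparisons limma called 0 of the 61, with 1 to 9 at an unadjusted p under 0.05. Of all features, 0% to 0.921% were called in these comparisons, and 1.93% to 15.1% had an unadjusted p under 0.05.

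Sample by sample, the role groups followed the 6 genes to different degrees. Over the 24 samples, the mean of all 61 genes correlated with the adipocyte mean at r = 0.959, and at 0.925 without the 2 highest samples. By role, r was 0.954 for fatty acid uptake and triglyceride synthesis, 0.904 for lipolysis, 0.893 for brown fat, 0.876 for fatty acid synthesis, 0.874 for transcription and insulin response, 0.848 for the lipid droplet coat and 0.700 for adipokines. Spearman's rho, which high samples sway less, was 0.884, 0.709, 0.866, 0.641, 0.672, 0.572 and 0.533 in the same order. For all 61 genes rho was 0.908. FASN, the fatty acid synthase and brightest gene of its group, ranged from 11.35 to 17.97 (r = 0.802), while FADS1, a fatty acid desaturase, ranged from 12.24 to 13.90 (r = 0.313). PNPLA2, the lipase that starts triglyceride breakdown, ranged from 10.74 to 14.76 (r = 0.893), and ADIPOR2, an adiponectin receptor, from 11.92 to 16.10 (r = 0.882). Other bright genes of the lists did not follow: CEBPB, an early factor of adipocyte development, had r = 0.104, ANGPTL4, an inhibitor of LPL, 0.404, PLIN2, the droplet coat of many cell types, 0.400, UCP2, a mitochondrial carrier, 0.371, and CAV1 -0.094.

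**Figure D3:**
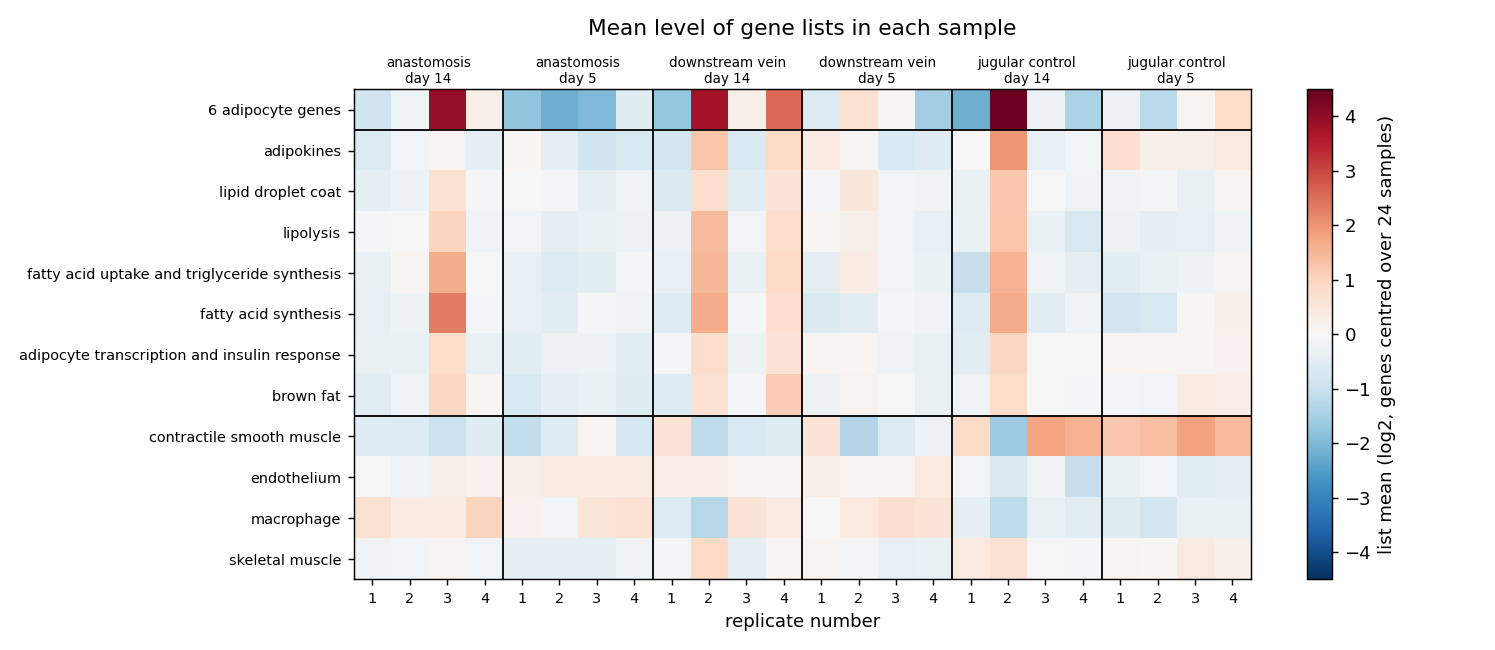
Mean level of the 6 adipocyte genes, of 7 adipocyte role groups and of 4 other cell type lists (rows) in each of the 24 samples (columns, by site, day and replicate number), as colour on a log2 scale with each gene centred over the samples. The column of jugular control replicate 2 of day 14, at 4.40 for the 6 genes, is red for all 7 adipocyte role groups and blue for contractile smooth muscle, at -1.65.

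Among 5650 genes with a symbol, 14 had r above 0.9 with the adipocyte mean and 63 above 0.8. The 10 most like it over the 24 samples began with CA3, a carbonic anhydrase of muscle and fat (r = 0.976, or 0.959 without the 2 highest samples), PON3, a lactonase (0.968 or 0.945), and UCP3, a mitochondrial carrier (0.958 or 0.938). PPARG, the master transcription factor of fat cells, followed at 0.946, and LIPE, hormone-sensitive lipase, at 0.942. The rest were LPIN1, a phosphatidate phosphatase of triglyceride synthesis, at 0.941, AQP7, the glycerol channel of fat cells, at 0.929, CD36, a fatty acid transporter, at 0.928, CLDN4, a tight junction protein, at 0.919 and GPD1, which makes glycerol phosphate, at 0.916. Of these 10, 7 were among the listed genes of adipocyte biology, and CA3 was on the skeletal muscle list.

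Genes of muscle and other cell types were called in the same comparisons, and their part in the adipocyte differences was not tested. Their counts stand beside the share of all features called: at the anastomosis 8.79% at day 14 and 19.4% at day 5, and in the downstream vein 0.921% at day 14 and 8.21% at day 5. At the anastomosis at day 5, 10 of 13 contractile smooth muscle genes fell against the jugular control with a median of -2.13, PLN by 3.37 and CNN1 by 2.83, and 0 rose. Macrophage genes rose in 4 of 11 (SLC11A1 by 3.16, MSR1 by 2.50) and endothelial genes in 4 of 8 (KDR by 2.13, CDH5 by 1.5). Of 8 fibroblast and fat progenitor genes, 1 rose and 3 fell there. SCARA5 fell by 5.84 and MFAP5 fell by 2.30, and 3 of 13 skeletal muscle and 2 of 5 nerve genes fell, the skeletal muscle share being near that of all features. Of 5 reference genes, 3 rose, with a list median of 0.38. At day 14, 1 of 13 contractile genes fell (PDLIM3 by 2.65), while 5 of 11 macrophage genes and 3 of 8 endothelial genes rose. In the downstream vein at day 5, 4 of 13 contractile genes fell, and 4 of 11 macrophage and 4 of 8 endothelial genes rose, and at day 14, 1 of 8 endothelial genes rose (KDR by 1.72). Of 7 lymph node genes, 1 rose at the anastomosis at day 14 (CCL21 by 3.13), and for the 1 blood cell gene measured, limma gave 0 calls, with 0 at an unadjusted p under 0.05.

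In the scanner files, the sample highest in fat genes was also the lowest in contractile genes. Jugular control replicate 2 of day 14 had a contractile smooth muscle mean of -1.65, centred like the adipocyte mean, whereas the other 7 jugular samples lay between 0.86 and 1.81. By that measure it stood below every graft-site sample too. At day 14, the contractile mean ran from -0.96 to -0.53 at the anastomosis and from -1.16 to 0.63 downstream, and at day 5 from -1.09 to 0.17 at the anastomosis and from -1.32 to 0.58 downstream. Its correlation with the adipocyte mean was -0.426 over the 24 samples and -0.253 without the 2 highest, and the same values were -0.232 and -0.126 for macrophage genes and -0.148 and -0.028 for endothelial genes. Skeletal muscle (0.619), nerve (0.626), lymph node (0.463) and fibroblast genes (0.348) had positive values, while blood cell (0.074) and reference genes (0.048) had values near 0. The skeletal muscle list includes CA3, the gene most like the adipocyte mean (r = 0.976, levels from 6.41 to 15.38). Its value without CA3 was not computed.

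**Figure D4:**
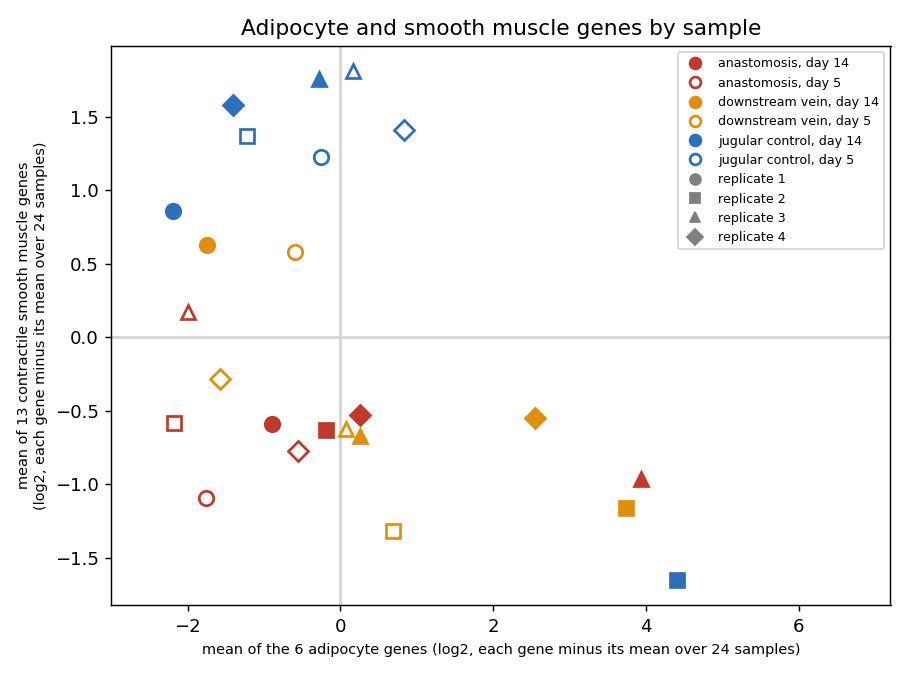
Adipocyte mean (x, log2, centred) against contractile smooth muscle mean (y, log2, centred) for the 24 samples, marked by site and day. Jugular control replicate 2 of day 14 lies alone at 4.40 and -1.65, away from the other jugular samples at 0.86 to 1.81 on the muscle axis.

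The deposited value table gave other ADIPOQ levels for replicate 4. In downstream replicate 4, the scanner file gave 15.77 at day 14 and 6.68 at day 5, and the authors' deposited table gave 6.72 at day 14 and 14.21 at day 5. For jugular control replicate 4 of day 5, the scanner file gave 13.55 and the table gave 16.53. The cause was not tested. Fitted on the table, limma called 2 of the 6 genes at the anastomosis against the jugular control at day 5: ADIPOQ differed by -8.00 (adjusted p = 0.00359) and CIDEC by -2.58 (adjusted p = 0.0386). It also called ADIPOQ between day 14 and day 5 at the anastomosis, with a difference of 7.03 (adjusted p = 0.0271). Both ADIPOQ differences had the same sign in the scanner files without replicate 4, -4.90 (adjusted p = 0.239) and 5.13 (adjusted p = 0.519).

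**Figure D5:**
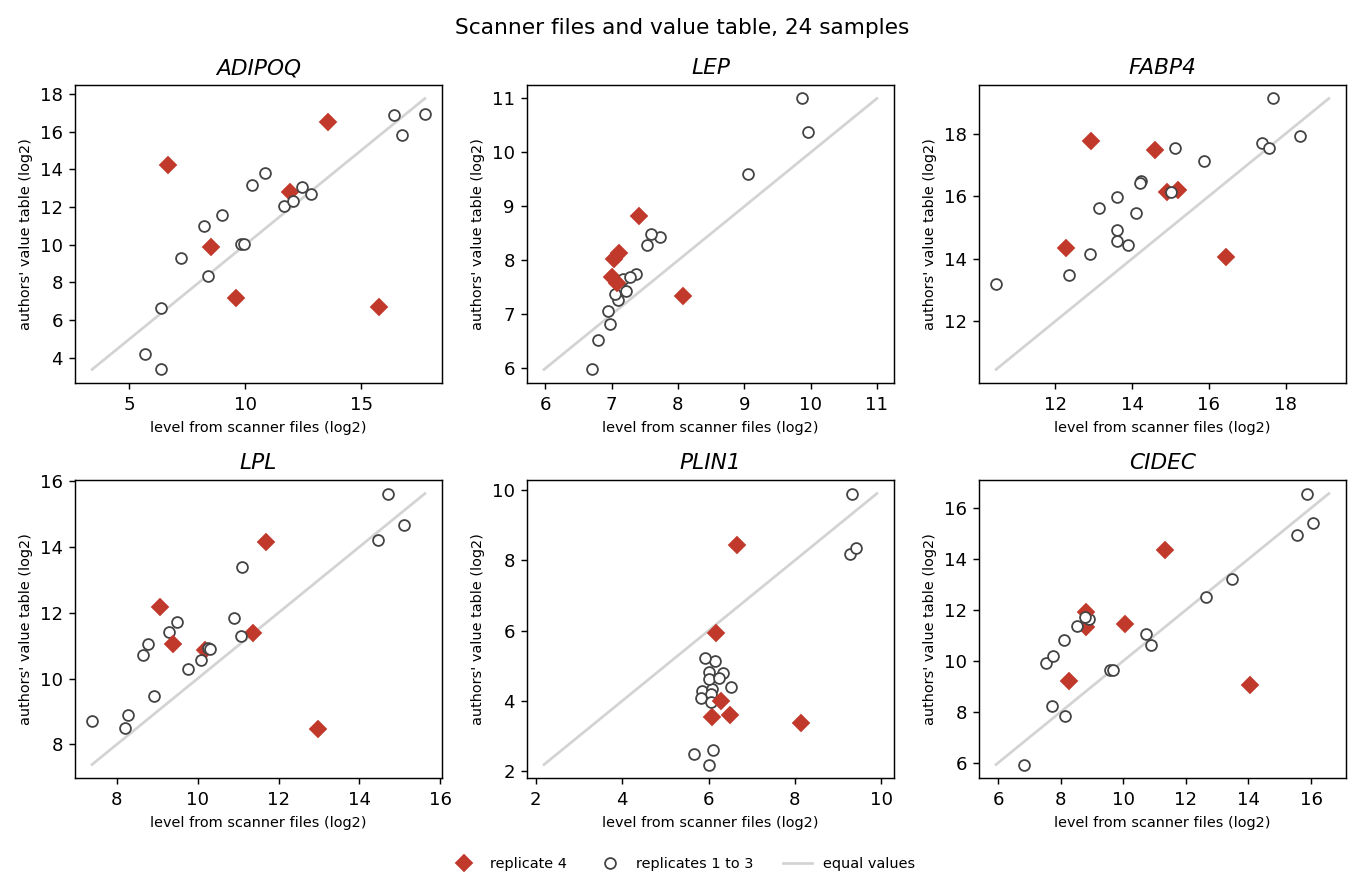
ADIPOQ and the other adipocyte genes in the authors' deposited value table (y, log2) against the scanner files (x, log2 normalised intensity), with replicate 4 marked apart. The ADIPOQ points of downstream replicate 4 lie far from the diagonal, at 15.77 in the scanner files and 6.72 in the table at day 14 and at 6.68 and 14.21 at day 5.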

How the data were processed

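The deposited scanner files held linear intensity values of 16 arrays of 2 colours (mean foreground and median local background per spot), extracted with Agilent Feature Extraction, with an earlier protocol version for replicates 1 and 2 than for 3 and 4, per the file headers. A table of log2 values per sample came from the authors too (the sources used here do not give its making). Intensities were corrected with normexp (offset 50), loess-normalised within arrays and Aquantile-normalised across arrays with limma 3.58.1 (R 4.3.3). Spots marked as outliers (0.021%) and control spots were left out. Each sample was its own channel. Symbols from the files and from tables of gene IDs and RefSeq genes named 8877 of 43603 probes (6006 symbols), and the brightest probe stood for a symbol. The 33440 features tested were well above background in 4 or more samples.

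Site comparisons and their day changes used lmFit and eBayes on all 24 samples with 8 blocks of number within day; day comparisons used the 8 samples of a site without a block. P-values were two-sided and adjusted by Benjamini-Hochberg over all features, with 0.05 as the threshold. The block came from the array design, since control and anastomosis sample of a number share an array. Deviations from group means correlated at 0.222 to 0.815 in these 8 pairs, at 0.192 to 0.758 in the 16 pairs of a number on different arrays, and at 0.074 to 0.622 between days of a site and number (11 of 12 over 0.1). The scripts were tested on simulated data.

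The 6 genes and all lists were chosen with earlier results of these data known. Named were the 6 genes, up to 8 called genes per comparison and the 2 brightest per role group of the adipocyte lists, the 10 genes most like the adipocyte mean, and up to 2 called genes per other cell type list (contractile smooth muscle, endothelium, macrophage, fibroblast and fat progenitor, skeletal muscle, nerve, lymph node, blood cell and reference genes). Alternatives were other background corrections, normalisations, filters, probes, blocks and samples, and the deposited table. One gene that the naming rule picks is not reported here.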

Additional observations from a re-analysis of the deposited data

Results flagged for a closer look

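In 36 groups of 4 samples (6 genes by 6 groups), 3 samples lay apart from the rest of their group by Dixon's criterion, which chance meets in about 1 of 20 groups. LEP in jugular control replicate 2 of day 14 was 9.96, with the nearest of the others at 7.27. PLIN1 in the same sample was 9.41, with the nearest at 6.28. PLIN1 in jugular control replicate 4 of day 5 was 6.66, with the nearest at 6.15.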

How the results depend on the processing

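Of 1260 differences of the 6 genes recomputed under alternatives, 7 passed the threshold that the reported one did not, and 120 changed sign with no call on either side. At the anastomosis against the jugular control at day 5, 3 of 6 genes were called with only the samples compared and 2 with the authors' value table, and the ADIPOQ difference ran from -8.00 to -3.96 with adjusted p from 0.00254 to 0.521. At day 14, leaving out each replicate gave 0 to 1 genes called. Between day 14 and day 5 at the anastomosis, 1 gene was called with the authors' value table. The cause was not tested. Without the replicate block, limma called 0 of 6 genes in the 9 site comparisons, and with a replicate block over the days 0 of 6 in the 3 day comparisons. With slide as a random block it called 0, with adjusted p = 0.0941 for ADIPOQ at the anastomosis at day 5; this could not be fitted for the day comparisons.

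Counts over all features moved more. For anastomosis against jugular control they were 6471 at day 5 (2 with replicates 1 and 2 only, 10994 with median centring) and 2941 at day 14 (1 and 13728). For the downstream vein they were 2744 at day 5 (0 and 8624) and 308 at day 14 (0 with only the samples compared, 10146 with median centring). Between the days at the anastomosis 2 features were called, 3086 with the authors' value table, and without anastomosis replicate 3 of day 14 the anastomosis and downstream vein differed at that day in 655 features, against 0. Median centring put the median of all features at 0.102 to 0.194 in the 4 comparisons with the control; there the median of the 61 adipocyte pathway genes at the anastomosis at day 5 was 0.30, against -0.03 as reported, and that of the 6 genes -0.90, against -1.04. In the authors' value table the median of the 6 genes in the downstream vein against the control at day 14 was -0.34, against 0.95. Dim signal limits PLIN1, well above background in 12 of 24 samples.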

Other observations

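The green channel of the 8 downstream arrays has no sample in the labels. Over all probes, each correlated at 0.9962 to 0.9990 with the jugular control of the same number and day and at most at 0.9918 with the others. Its ADIPOQ levels were 8.16, 16.68, 10.30 and 8.62 on the day 14 arrays of replicates 1 to 4 and 10.78, 9.76, 12.70 and 13.44 on those of day 5. CIDEC stood at 9.40 in the unlabelled channel of day 14 replicate 3 and at 12.65 in the jugular control of that number, whose array also carried the anastomosis sample at 15.87. For day 14 replicate 4 it stood at 10.84 in the unlabelled channel, on the array of the downstream sample at 14.05, and at 8.25 in the jugular control. In day 14 replicate 2, FABP4 was 16.22 in the unlabelled channel against 18.39 in the jugular control, and ADIPOQ 16.68 against 17.75. LEP (9.98 against 9.96) and PLIN1 (9.28 against 9.41) were closer there. For day 14 replicate 3, FABP4 was 13.67 against 12.36. The cause was not tested.

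Probes named only by a protein were left out of the 6 genes. The 2 probes for an adipocyte lipid droplet binding protein ranged from 6.75 to 14.65 and from 6.16 to 13.08, and correlated with the adipocyte mean at 0.958 and 0.950. The probe for adiponectin by that name ranged from 9.30 to 10.90 (r = 0.129), and the 2 for an adipocyte fatty acid-binding protein from 5.96 to 6.24 (r = 0.115) and from 6.53 to 7.56 (r = -0.168).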
